A study of Mus musculus with 168 samples.

Results

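The cortex of mice heterozygous for the Q175 knock-in allele of Htt was compared with that of mice heterozygous for the Q20 allele, both at 6 months of age. The libraries were taken by their titles, 8 of Q175 and 8 of Q20, which makes 16 of the 168 libraries of the series. Both groups are on the C57BL/6 strain, carry 1 wild-type and 1 knock-in copy of Htt, and hold 4 females and 4 males. Q20 stands for a nominal 20 CAG repeats, in the range that causes no disease, so that both groups carry an engineered allele and differ in repeat length. The labels give Q175 mice as housed with Q175 mice and Q20 mice as housed with Q20 mice, and each allele has its own block of library numbers, so that allele, housing and library series cannot be told apart. PolyA RNA of whole cortex was sequenced.

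Huntington's disease is caused by a lengthened run of CAG codons near the start of HTT, which is read as a run of glutamines in huntingtin. Neurons of the striatum and the cortex are the most affected cells, and lower levels of transcripts of signalling proteins, receptors and ion channels are the best known change of RNA in patients and models. The knock-in lines place the lengthened run in the mouse's own gene, under its own promoter, in all cells that use Htt. The start of the mouse coding sequence is shown because this is where the alleles differ, with the run of CAG and CAA codons in capitals (GENCODE M21, GRCm38, chr5:34761907-34762056, plus strand, exon 1). The reference run begins at codon 18 and holds 6 CAG and 1 CAA codons, and it is the mouse reference and not the knocked-in sequence.
Htt coding start: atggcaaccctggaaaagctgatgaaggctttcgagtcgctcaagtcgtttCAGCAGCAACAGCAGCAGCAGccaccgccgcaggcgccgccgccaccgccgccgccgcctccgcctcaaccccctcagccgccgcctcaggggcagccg

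The estimated counts of the 16 libraries summed to between 33835819 and 42682152. Levels are given as CPM, read counts relative to the scaled size of the library, and differences as log2 of Q175 over Q20 with the standard error (SE). In 14 of the 16 libraries the score on the first principal component of all 56 libraries of this age, which held 21.8% of the variance, lay between -17.3 and -11.2. Q175 male 1 was at -1.83 and Q20 male 2 at 4.16, and the library names of both end without a token that the other 14 have. Q20 female 2 and Q20 male 2 also held far more choroid plexus RNA than the others. Counts are therefore also given without these libraries where that matters. In bulk tissue, fewer cells of a type and less RNA per cell cannot be told apart.

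Htt itself was lower in Q175. Its level lay at 191, 215 and 222 CPM (lowest, median and highest of 8) in Q20 and at 120, 160 and 169 CPM in Q175. The groups did not overlap, and the lowest library of Q20 stood above the highest of Q175. The difference was -0.43 ± 0.04 (SE, adjusted p = 6.8e-12, edgeR), with -0.44 in females and -0.42 in males. Msantd1, whose annotated gene overlaps the end of Htt, had a difference of -0.34 ± 0.10 (adjusted p = 0.018), with an adjusted p of 0.082 without Q20 female 2 and Q20 male 2. How reads of the overlap were counted is not known.

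Many genes differed by small amounts. Of 17611 genes tested, 1690 passed an adjusted p of 0.05 (9.60%), 828 higher (4.70%) and 862 lower (4.89%) in Q175. The median size of the called differences was 0.15 on the log2 scale, and 28 exceeded a factor of 2, of which 23 were lower. For 190 genes (1.08%) the 8 Q175 libraries and the 8 Q20 libraries did not overlap, and 186 of these were among the called. Without Q20 female 2 and Q20 male 2 the counts were 505 higher and 572 lower, and with only the 16 libraries in the fit they were 430 and 565. On log2(FPKM + 0.1) with limma 1785 genes passed and 70.5% of them were higher, against 828 of 1690 with edgeR on counts. That setting also differs in tool, normalization and filter. Of the 1690 genes 1290 were called there too. Called lower genes had longer transcripts (median of the longest 4207 bases, against 2983 for the higher and 3179 for all tested) and a lower GC content (48.3%, against 54.2% and 49.8%). Called genes were also more abundant, with a median level of 61.6 CPM for the lower, 37.5 CPM for the higher and 16.1 CPM for all tested. The part of length, GC content and level in the calls, and in the shares of the lists below, was not tested.

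**Figure D1:**
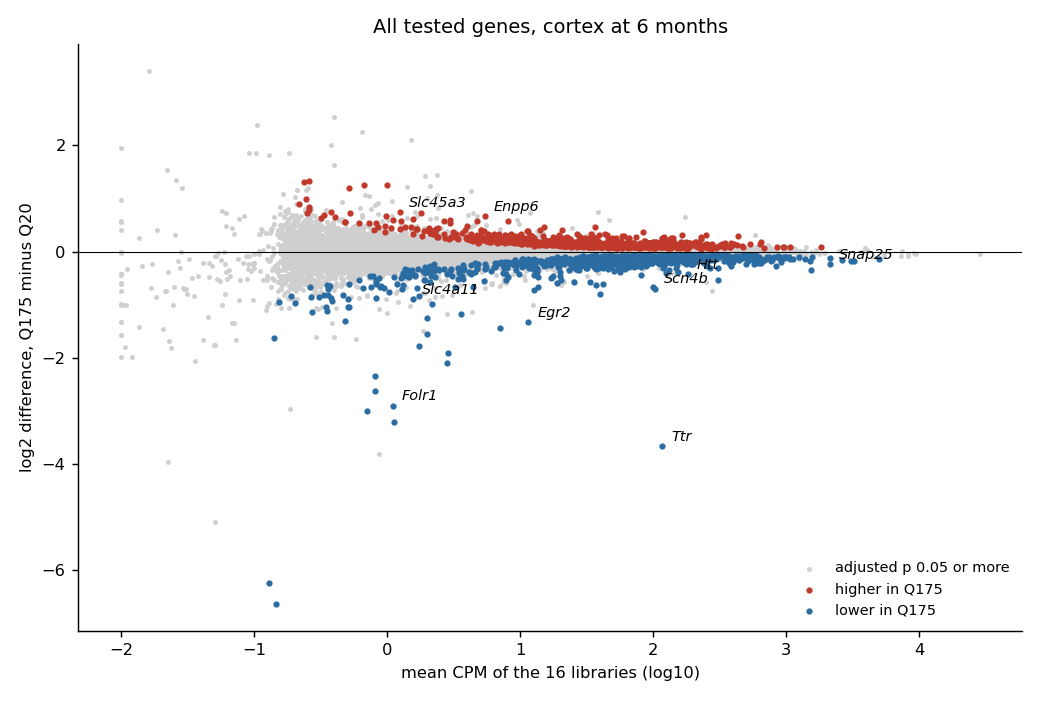
Log2 difference of Q175 from Q20 (y axis) against the mean level of the 16 libraries in CPM (x axis, log10) for each tested gene, with called genes in red (828 higher) and blue (862 lower). Most called genes lie close to 0, while Ttr at -3.67 and Folr1 at -2.90 lie far below, both called through Q20 female 2 and Q20 male 2.

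The lower genes with the smallest p had various functions. Gpr153, an orphan G protein-coupled receptor, lay at 28, 29.9 and 33.5 CPM in Q20 and at 18.3, 20.0 and 23.7 CPM in Q175. All Q175 libraries were below all Q20 libraries, with a difference of -0.58 ± 0.05 (adjusted p = 2.7e-12). Plk5, a polo-like kinase of differentiated cells, lay at 18.9, 23.3 and 24.3 CPM in Q20 and at 13.4, 15.3 and 16.8 CPM in Q175, again without overlap (-0.59 ± 0.06, adjusted p = 3.1e-11). Slc4a11, a membrane transporter expressed at a low level, lay at 1.49, 2.01 and 2.76 CPM in Q20 and 0.921, 1.09 and 1.27 CPM in Q175 (-0.90 ± 0.11, adjusted p = 1.0e-07). Hipk4 (-0.39), Camk2n1, an inhibitor of CaM kinase II (-0.34), Il33, a cytokine of glial nuclei (-0.36), Ackr1 (-0.31), Ppp4r4 (-0.23), Nrxn3, a presynaptic adhesion protein (-0.20) and Ddit4l (-0.45) were also among the 20 lower genes with the smallest p, and none of these overlapped between groups.

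Genes of cAMP signalling fell in part. Of 32 tested members, 8 were lower and 1 higher, with a median of -0.06, against a median of -0.0006 over all genes tested. Arpp21, a cAMP-regulated phosphoprotein abundant in cortical and striatal neurons, lay at 404, 427 and 439 CPM in Q20 and at 336, 351 and 364 CPM in Q175, with no overlap (-0.27 ± 0.03, adjusted p = 7.4e-11). Arpp19, an inhibitor of protein phosphatase 2A, lay at 268, 278 and 305 CPM in Q20 and 226, 234 and 236 CPM in Q175 (-0.27 ± 0.03, adjusted p = 1.7e-08). The phosphodiesterases Pde8b (-0.12), Pde1b (-0.19) and Pde7b (-0.18) and the adenylyl cyclase Adcy2 (-0.12) were lower, while the adenylyl cyclase Adcy3 was higher (0.09 ± 0.03, adjusted p = 0.047). That call held in 5 of the 16 fits that leave out 1 library, and the adjusted p was 0.11 without Q20 female 2 and Q20 male 2.

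Calcium and calmodulin signalling moved most widely of the signalling lists described here: 17 of 34 members were lower and none higher, with a median of -0.11. The count was 17 under each other setting tried and 17 or 18 when single libraries were left out. The list covers the calcium pumps Atp2b2 (-0.22), Atp2b1 (-0.17) and Atp2a2 (-0.16), the CaM kinases Camkk2 (-0.22), Camk4 (-0.23), Camk2a (-0.17) and Camk2b (-0.11), and subunits of calcineurin (Ppp3r1, -0.13 and Ppp3ca, -0.10). Atp2b2, the plasma membrane pump, had medians of 668 CPM in Q20 and 590 CPM in Q175. The groups did not overlap, and the difference was -0.22 ± 0.03 (adjusted p = 9.6e-07).

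Ion channels followed with smaller shares. Of 55 potassium channel genes 15 were lower (27.3%) and none higher (median -0.07). Kcna1, a delayed rectifier of axons, lay at 202, 206 and 213 CPM in Q20 and at 159, 175 and 197 CPM in Q175 (-0.24 ± 0.03, adjusted p = 1.2e-07), and Kcnh5 (-0.42) and Kcnh4 (-0.33) were lower too. Of 30 sodium, calcium and HCN channel genes 5 were lower (16.7%) and 2 higher (6.7%). Scn4b, a sodium channel beta subunit known for its level in striatal neurons, lay at 117, 125 and 142 CPM in Q20 and at 71.3, 77.4 and 85.4 CPM in Q175. Its groups were far apart, with a difference of -0.70 ± 0.07 (adjusted p = 4.6e-10). The higher members were Scn3b (0.12) and Hcn3 (0.16).

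Receptor genes were called mostly lower. Gabrd, the delta subunit of extrasynaptic GABA receptors, lay at 64.2, 68.0 and 72.3 CPM in Q20 and at 48.9, 55.3 and 59.3 CPM in Q175 (-0.32 ± 0.03, adjusted p = 1.2e-10), without overlap. It was 1 of 5 lower (31.2%) among 16 GABA receptor and transporter genes, among them Gabrb2 (-0.19) and Gabrb1 (-0.17). This count fell to 3 when any of Q175 female 2, Q175 male 2, Q20 female 2 or Q20 male 2 was left out, and to 1 without both of the latter. Of 23 glutamate receptor genes 4 were lower (17.4%). These were Gsg1l, an AMPA receptor auxiliary subunit (-0.27), and the metabotropic receptors Grm3 (-0.20), Grm2 (-0.26) and Grm4 (-0.22). Of 40 receptors for peptides, amines and cannabinoids 5 were lower, with Gpr83 (-0.35) and the muscarinic receptor Chrm3 (-0.24) leading, and 1 was higher, the somatostatin receptor Sstr1 (0.39 ± 0.06, adjusted p = 1.4e-05). The count of 5 became 3 without Q20 female 2 or without Q20 female 4.

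Transcripts of the release machinery were lower for 10 of 29 members (34.5%) and higher for none (median -0.06). Snap25, a SNARE protein of vesicle fusion and among the most abundant neuronal transcripts, lay at 2156, 2277 and 2450 CPM in Q20 and at 1867, 1945 and 2054 CPM in Q175. The groups did not overlap (-0.24 ± 0.03, adjusted p = 2.5e-07). Other lower SNARE genes included Vamp1 (-0.22) and Vamp2 (-0.13), beside the complexins Cplx2 (-0.14) and Cplx1 (-0.10) and the calcium sensors Syt1 (-0.14) and Syt2 (-0.21). Rgs4, which shortens G protein signals in cortical neurons, lay at 324, 339 and 357 CPM in Q20 and at 270, 275 and 284 CPM in Q175 (-0.30 ± 0.04, adjusted p = 3.4e-07). It was 1 of 3 lower (21.4%) among 14 regulators of G protein signalling, with Rgs20 (-0.19) and Rgs8 (-0.12). This count rose to 6 without Q175 female 1 and to 5 without Q20 female 3.

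Markers of neuronal classes did not move alike. Of 11 upper layer markers 6 were lower (54.5%) and none higher (median -0.16). Their summed level ran from 850 to 940 CPM in Q175 and from 994 to 1092 CPM in Q20. Lamp5, of upper layer neurons and a class of interneurons, lay at 160, 175 and 184 CPM in Q20 and 123, 136 and 142 CPM in Q175 (-0.38 ± 0.05, adjusted p = 6.7e-07), and Wfs1, an endoplasmic reticulum protein of layer 2 neurons, at 115, 133 and 141 CPM and 99.5, 106 and 112 CPM (-0.31 ± 0.04, adjusted p = 1.3e-07). Among 15 deep layer markers 3 were lower (20.0%), Pcp4 (-0.20), Cplx3 (-0.24) and Nr4a2 (-0.30), and 1 was higher (6.7%), Rprm (0.26). Of 10 markers of glutamatergic neurons only Camk2a passed (-0.17), while Slc17a7, the vesicular glutamate transporter, had -0.07 ± 0.04 (adjusted p = 0.26). Of 21 interneuron markers 4 were lower (19.0%), Npy (-0.17), Gad1 (-0.21), Erbb4 (-0.12) and Vip (-0.18), and the count was 2 without Q175 female 2.

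Markers of striatal projection neurons were lower for 8 of 19 members (42.1%), with a median of -0.39. Penk, the precursor of enkephalin, lay at 93.7, 122 and 147 CPM in Q20 and at 69.3, 74.1 and 83.5 CPM in Q175, with no overlap (-0.67 ± 0.13, adjusted p = 0.00046). Adora2a, the adenosine A2a receptor (-0.67), Drd1, a dopamine receptor (-0.39), Ppp1r1b, a dopamine-regulated phosphatase inhibitor (-0.40), Pdyn (-0.29) and Rasd2 (-0.27) were lower, and their groups overlapped. Drd1 passed in 7 of the 16 fits that leave out 1 library. Other defining members did not pass: Drd2 had -0.54 ± 0.24 (adjusted p = 0.15) and Rgs9 -0.41 ± 0.16 (adjusted p = 0.096). The summed level of the list ran from 961 to 1079 CPM in Q175 and from 1012 to 1407 CPM in Q20, where Q20 male 2 was highest. The count fell to 5 without Q20 male 2 and to 4 without Q20 female 2 and Q20 male 2, when Scn4b (-0.65), Penk (-0.62), Ppp1r1b (-0.37) and Rasd2 (-0.26) passed. Some of these genes are also expressed in cortex, and the part of striatal tissue in the samples was not tested.

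Immediate early genes, which neurons switch on within minutes of firing, were lower for 7 of 22 members (31.8%), and no member was higher. The median was -0.41. Egr2 lay at 9.39, 16.3 and 22.8 CPM in Q20 and at 4.77, 6.39 and 8.95 CPM in Q175, and its groups did not overlap (-1.33 ± 0.33, adjusted p = 0.0054). Fos lay at 35.1, 52.4 and 66.5 CPM in Q20 and at 20.8, 28.5 and 40.4 CPM in Q175 and overlapped (-0.80 ± 0.25, adjusted p = 0.03). Dusp1 (-0.63), Fosl2 (-0.60), Egr1 (-0.54), Nptx2 (-0.33) and Nr4a2 (-0.30) were the other calls. The count depended on single libraries and ran from 2 to 8 when 1 was left out. It was 2 without Q20 female 4, and 3 without Q175 male 1, Q175 male 3 or Q175 male 4. It was 4 without Q175 female 1 or Q20 female 2, and 2 without Q20 female 2 and Q20 male 2. Under other settings it ran from 2 to 12, with 8 in DESeq2. Egr2 passed in each of the 16 fits that leave out 1 library. The list's summed level ran from 1040 to 1406 CPM in Q175 and from 1244 to 1941 CPM in Q20. Of 18 circadian clock genes 5 were lower (27.8%), led by Hlf (-0.20), Ciart (-0.53), Per3 (-0.20) and Nr1d1 (-0.26). This count ran from 3 to 12 under other settings. The time of day of sampling is not given in the sources used here.

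**Figure D2:**
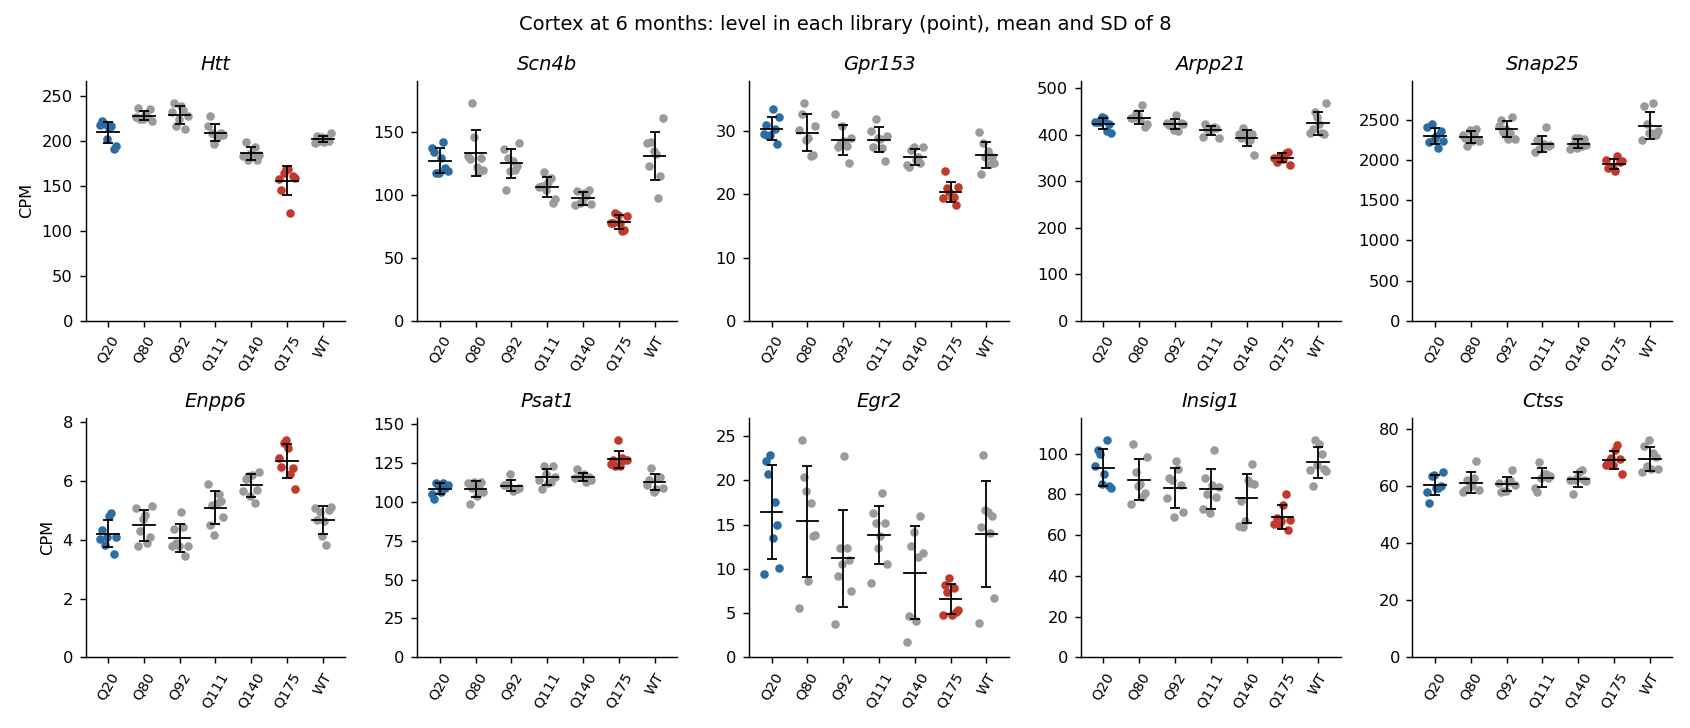
Level in CPM (y axis, from 0) of 10 genes in each 6-month library (points) for the 6 knock-in alleles and wild type (x axis), with the mean and SD of 8 libraries. Q20 is in blue and Q175 in red, and the Q175 points of Htt, Scn4b, Gpr153, Arpp21, Snap25, Egr2 and Insig1 lie below all of Q20, while those of Enpp6 and Psat1 lie above.

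Cholesterol synthesis was the metabolic pathway with the largest share of lower genes among the lists described here. Of 24 members 15 were lower (62.5%) and none higher (median -0.15), and 13 to 16 were lower when single libraries were left out. Without Q20 female 2 and Q20 male 2 the count was 10. Insig1, which holds the sterol sensor in the endoplasmic reticulum, lay at 83.0, 92.0 and 107 CPM in Q20 and at 62.6, 67.1 and 80.2 CPM in Q175, with no overlap (-0.44 ± 0.08, adjusted p = 8.0e-05). Along the pathway, Acat2 (-0.17), Mvd (-0.25), Idi1 (-0.30), Fdft1 (-0.16), Sqle (-0.15), Cyp51 (-0.26), Msmo1 (-0.23), Nsdhl (-0.14), Hsd17b7 (-0.22), Sc5d (-0.13) and Dhcr7 (-0.15) were lower, and so was the sterol carrier Stard4 (-0.25). Among 14 genes of fatty acid synthesis Fads1 (-0.13), Scd2 (-0.10) and Elovl4 (-0.11) were lower and Srebf1 was higher (0.17 ± 0.05, adjusted p = 0.03).

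Because these genes fell together, their promoters were searched for CCAAT on both strands, a motif chosen after the values were seen, in windows of 300 bases (RefSeq, GRCm38.p6) of which 250 lie before the start. Of the 15 lower genes 10 had entries, with 12 promoters, and 9 of these held the motif (75.0%). The share was 37.1% in the 16283 promoters of tested genes. It was 36.4% in those of all lower genes and 35.7% in those of all higher genes. The motif was not counted separately in the cholesterol genes that did not pass. A trait of the pathway and a trait of its lower genes therefore cannot be told apart. Of the other motifs searched, the E-box CACGTG was in 33.3% of the 12 promoters (9.20% of all tested), TGCGTCA and GCGTGGGCG in 8.33% each, and the cAMP response element, the ETS motif and the heat shock element in none. The 250 bases before the start are shown for the 3 with the largest falls among those with entries, with CCAAT or its complement ATTGG in capitals, for Insig1 (chr5:28071162-28071411, plus strand), Idi1 (chr13:8885356-8885605, plus strand) and Cyp51 (chr5:4104698-4104947, minus strand).
Insig1: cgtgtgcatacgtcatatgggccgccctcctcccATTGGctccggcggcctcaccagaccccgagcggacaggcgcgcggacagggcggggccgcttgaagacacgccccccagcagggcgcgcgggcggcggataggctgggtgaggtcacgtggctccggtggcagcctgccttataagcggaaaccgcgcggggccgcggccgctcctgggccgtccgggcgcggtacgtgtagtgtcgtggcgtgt
Idi1: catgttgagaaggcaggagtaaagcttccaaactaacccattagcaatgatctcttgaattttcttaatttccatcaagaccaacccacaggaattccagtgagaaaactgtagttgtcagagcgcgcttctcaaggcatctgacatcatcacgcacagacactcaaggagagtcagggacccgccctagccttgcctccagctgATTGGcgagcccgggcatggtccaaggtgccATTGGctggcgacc
Cyp51: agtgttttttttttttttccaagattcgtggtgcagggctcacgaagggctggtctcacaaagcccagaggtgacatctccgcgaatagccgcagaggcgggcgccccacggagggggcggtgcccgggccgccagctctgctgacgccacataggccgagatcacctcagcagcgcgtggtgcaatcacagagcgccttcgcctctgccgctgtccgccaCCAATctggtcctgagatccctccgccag
Motifs of 6 other factors were counted in the promoters of all called genes. The cAMP response element TGACGTCA was in 3.65% of the promoters of higher genes, 2.35% of lower genes and 2.71% of all tested, and the ETS motif CCGGAAGT in 6.60%, 3.91% and 6.57%. TGCGTCA was in 4.0%, 3.13% and 3.22%, CACGTG in 8.95%, 8.50% and 9.20%, GCGTGGGCG in 0.707%, 0.783% and 1.1%, and the heat shock element in 0.707%, 0.224% and 0.473%. These are counts of letters on both strands and not of binding.

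Glial markers split by cell type. Of 20 microglial markers 11 were higher (55.0%), against 4.70% among all genes, and none was lower (median 0.13). The count was 9 to 11 when single libraries were left out and 8 without Q20 female 2 and Q20 male 2. Ctss, a lysosomal protease, lay at 54.1, 59.8 and 64.8 CPM in Q20 and at 64.1, 68.7 and 74.4 CPM in Q175, with a small overlap (0.19 ± 0.04, adjusted p = 0.00012). In wild type at this age Ctss ran from 64.9 to 76.2 CPM, which is the level of Q175. Tmem119 (0.28), Csf1r (0.15) and Cx3cr1 (0.15) and the complement genes C1qa (0.14), C1qb (0.14) and C1qc (0.17) were among the 11 higher markers. P2ry12 (0.079), P2ry13 (0.223), Siglech (0.098), Fcrls (0.057) and Gpr34 (0.099) did not pass. Nor did Trem2 (0.089), Tyrobp (0.055), Irf8 (0.121) or Cd68 (-0.015). The summed level of the 20 markers ran from 674 to 752 CPM in Q175, from 610 to 677 CPM in Q20 and from 639 to 696 CPM in wild type. Of 22 interferon-stimulated genes 4 were higher (18.2%), among them Irf7 (0.54 ± 0.11, adjusted p = 0.001), Ifi27 (0.17) and Rtp4 (0.36). Of 24 genes of reactive glia, complement and antigen presentation 7 were higher (29.2%), the 3 C1q genes, Serpina3n (0.30), H2-D1 (0.15), B2m (0.11) and Vim (0.21). Il33 was lower (4.2%). The count of 7 was 4 without Q20 female 2 and 3 without Q20 female 2 and Q20 male 2.

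Of 16 astrocyte markers 7 were lower (43.8%) and 1 higher (6.2%), with a median of -0.08. The potassium channel Kcnj10 lay at 205, 216 and 249 CPM in Q20 and at 180, 189 and 204 CPM in Q175, just apart (-0.20 ± 0.04, adjusted p = 0.00013). The glutamate transporters Slc1a2 (-0.18) and Slc1a3 (-0.10), Glul, which turns glutamate into glutamine (-0.17), Slc4a4 (-0.24), Gja1 (-0.10) and Ndrg2 (-0.14) were the other lower members. S100b, a calcium-binding protein, went the other way, from 115, 120 and 125 CPM in Q20 to 132, 140 and 149 CPM in Q175 with no overlap (0.22 ± 0.03, adjusted p = 1.0e-05).

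In the oligodendrocyte lineage Enpp6, a choline-specific phosphodiesterase of newly formed oligodendrocytes, had the smallest p of all higher genes. It lay at 3.52, 4.10 and 4.90 CPM in Q20 and at 5.73, 6.63 and 7.40 CPM in Q175. The groups were apart, and the difference was 0.67 ± 0.07 (adjusted p = 4.3e-09). The other 9 markers of that stage did not pass, with Tns3 at 0.13 ± 0.05 (adjusted p = 0.062), Neu4 at 0.14 ± 0.06 (adjusted p = 0.14) and Gpr17 at 0.12 ± 0.07 (adjusted p = 0.30). Of 9 precursor markers the transcription factors Olig1 (0.37) and Olig2 (0.27) were higher (22.2%), and Olig2 passed in 6 of the 16 fits that leave out 1 library. Of 18 genes of mature cells and myelin 2 were higher (11.1%), with Mag (0.16) among them. The lower members were 4 (22.2%), with Mal (-0.25), Ugt8a (-0.22) and Mobp (-0.21) among them. The count of 4 lower was 1 without Q20 male 2, whose summed level of the list, 5698 CPM, was the highest of the 16, and it was 2 without Q175 male 3.

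Beside Enpp6, some other genes of choline and phospholipid metabolism were higher. Chdh, the mitochondrial choline dehydrogenase, lay at 5.52, 6.65 and 7.31 CPM in Q20 and at 8.36, 9.61 and 10.6 CPM in Q175 (0.57 ± 0.07, adjusted p = 1.0e-07), and Plpp2, a lipid phosphatase, at 1.94, 2.15 and 2.58 CPM and 2.87, 3.16 and 3.95 CPM (0.57 ± 0.08, adjusted p = 2.6e-06). Neither overlapped. Of 18 genes of choline and phospholipid metabolism 5 were higher (27.8%), with Slc44a2 (0.13) and Chkb (0.12) beside these. Plpp3 (-0.12) and Gpcpd1 (-0.12) were lower (11.1%), and the median of the list was -0.0.

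The other higher genes with the smallest p had various functions. Psat1, of serine synthesis, lay at 102, 109 and 112 CPM in Q20 and at 123, 127 and 140 CPM in Q175 (0.23 ± 0.03, adjusted p = 3.8e-08), and Phgdh, the enzyme before it, had 0.11 ± 0.03 (adjusted p = 0.02, and 0.11 without Q20 female 2 and Q20 male 2). Both are on a list of the unfolded protein response and ATF4 targets, of whose 30 members 2 were higher (6.7%) and 2 lower (6.7%), Slc7a11 (-0.16) and Ddit3 (-0.13). Asl of the urea cycle (0.30), the mitochondrial Echdc2 (0.40), Cpox of haem synthesis (0.20), Gpi1 of glycolysis (0.15), the lipid transporters Abca8a (0.46) and Abca7 (0.31), the semaphorin receptor Plxnb3 (0.34), Col12a1 (0.34), Prdm8 (0.40), Tbkbp1 (0.23), Tprgl (0.18) and Anapc5 (0.17) were also among the 20 with the smallest p. By size, Slc45a3 led the higher genes of at least 1 CPM with 0.74 ± 0.16 (adjusted p = 0.00083), at 0.584, 0.870 and 1.32 CPM in Q20 and 1.11, 1.55 and 2.06 CPM in Q175, which overlapped. Tmprss5 (0.62), Prss16 (0.59), Sspo (0.59) and Dmrta2 (0.57) followed after Enpp6, and Dmrta2 passed in 6 of the 16 fits that leave out 1 library.

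Ribosomal proteins, a list added after the values were seen, were higher for 34 of 73 members (46.6%) and lower for none, with a median of 0.10. Rps21 (0.18) and Rps20 (0.17) had the smallest p, and Rpl13 the largest difference (0.32). Without Q20 female 2 and Q20 male 2 the count was 17 with a median of 0.08. Sarcomere and muscle calcium-release genes, also added after the values were seen, were lower for 8 of 15 members (53.3%, median -0.26). Myh7, a myosin heavy chain, lay at 18.8, 20.2 and 21.3 CPM in Q20 and at 12, 14.3 and 16.9 CPM in Q175 (-0.50 ± 0.06, adjusted p = 1.0e-07). Ryr1 (-0.26), Tcap (-0.67), Mybpc3 (-1.04), Trim54 (-0.93), Tnnc1 (-0.52) and Myl4 (-0.35) were lower as well. Cd4, named after its values were seen, had 2.28, 2.59 and 3.46 CPM in Q20 and 0.876, 1.22 and 1.31 CPM in Q175 (-1.25 ± 0.19, adjusted p = 6.4e-06).

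Other pathways often examined in Huntington's disease held called genes at shares near the 9.60% of all genes tested or had too few members to differ from it by more than a few genes. None of 15 genes of mismatch repair and repeat modification passed, with Pold1 at 0.14 ± 0.05 (adjusted p = 0.08) and Msh3 at 0.08 ± 0.04 (adjusted p = 0.18). None of 18 autophagy and lysosome genes passed. Of 20 heat shock genes 1 was lower, Hspa4l (-0.11), of 18 proteasome and ubiquitin genes 1 was higher, Uchl1 (0.14), and 1 lower, Nfe2l1 (-0.07), and of 33 Polycomb and chromatin genes 1 was higher. Of 13 tested developmental transcription factors 1 was higher, Onecut2 (0.39 ± 0.10, adjusted p = 0.0088). Among 25 nuclear genes of the respiratory chain Cox6a1 (0.23) and Cox4i1 (0.09) were higher and Ppargc1a, a coactivator of mitochondrial genes, was lower (-0.18 ± 0.04, adjusted p = 0.00044). No marker of endothelium (13 tested), of mural cells and fibroblasts (12), of hippocampus (9) or of blood (5) passed.

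**Figure D3:**
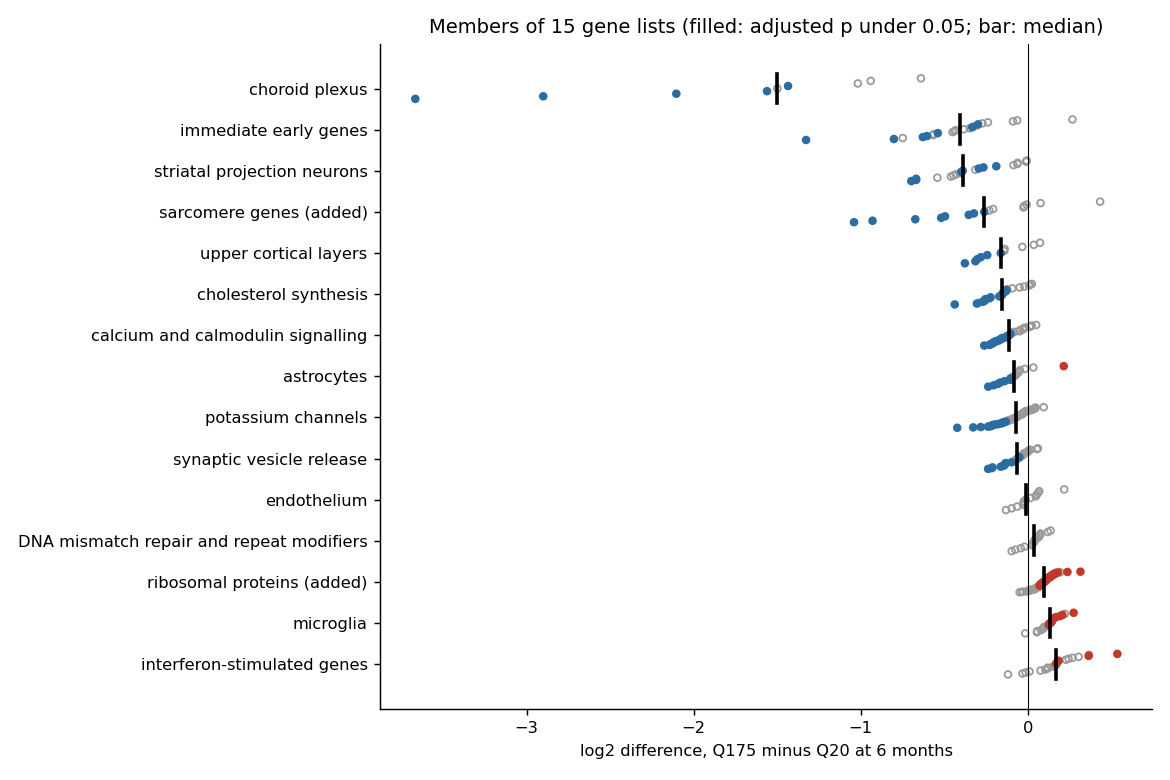
Log2 difference of Q175 from Q20 (x axis) for each tested member of 15 gene lists (rows), filled where the adjusted p was under 0.05, with the list's median as a black bar. Members of choroid plexus reach -3.67, those of microglia and ribosomal proteins lie mostly above 0, and those of endothelium and mismatch repair lie around 0 with none filled.

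The largest falls by size were in choroid plexus transcripts, which were high in 2 Q20 libraries. Of 9 choroid plexus markers 5 were lower (55.6%), with a median of -1.50. Ttr, the transthyretin of the choroid plexus, lay at 6.66, 13.6 and 912 CPM in Q20 and at 7.77, 12.2 and 48.2 CPM in Q175 (-3.67 ± 1.03, adjusted p = 0.016), so that the medians were close and the groups overlapped. The list summed to 1015 CPM in Q20 female 2 and 848 CPM in Q20 male 2, to at most 40.7 CPM in the other Q20 libraries and to 21.2 to 65.2 CPM in Q175. Without both libraries none of the 9 passed and the median was 0.11, and without Q20 male 2 alone none and without Q20 female 2 alone 1 passed. Slc4a5 (-3.20), Folr1 (-2.90), F5 (-2.10), Mfrp (-1.90), Kcnj13 (-1.56) and Kl (-1.43) were also called, and none of them passed without both libraries.

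**Figure D4:**
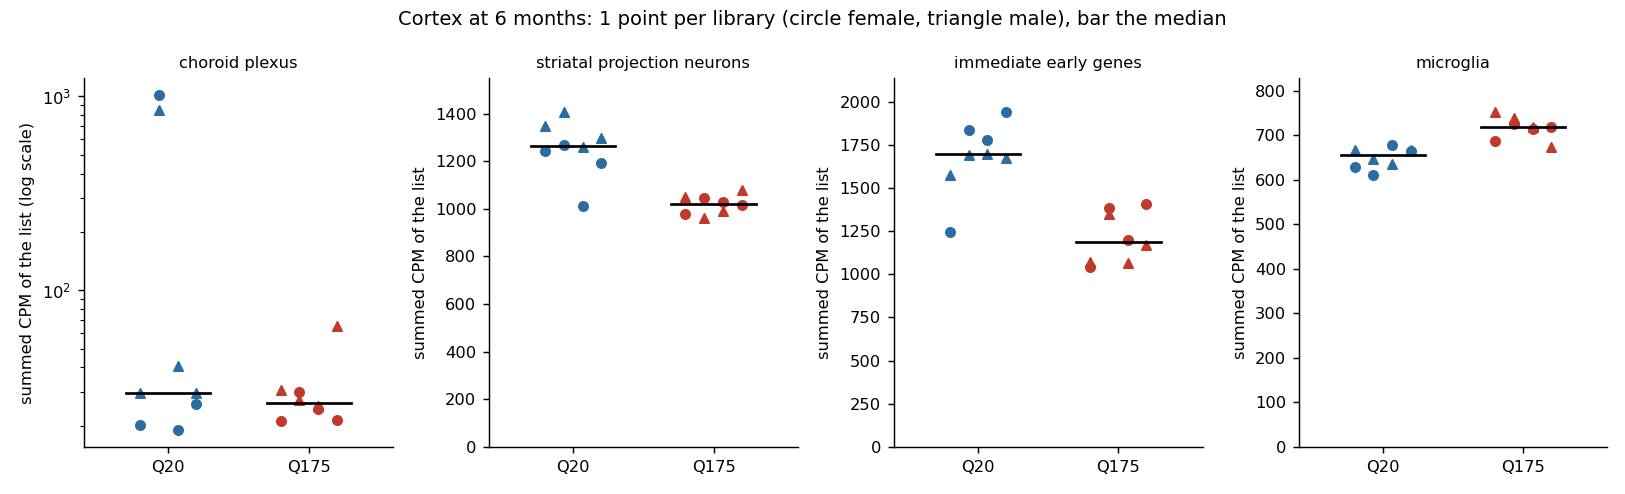
Summed CPM of 4 gene lists (y axis, logarithmic for choroid plexus and from 0 for the others) in each Q20 and Q175 library (points, circle female and triangle male), with the median as a bar. Of the Q20 libraries 2 stand at 848 and 1015 CPM for choroid plexus, the striatal and immediate early lists are spread more widely in Q20, and the microglial list lies mostly higher in Q175.

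The difference between Q175 and Q20 was not shown to depend on sex. No gene of 17611 passed for the male minus female difference in edgeR (0%), 1012 genes had an unadjusted p under 0.05, and DESeq2 called 0. Within females 346 genes passed (1.96%) and within males 626 (3.55%). Scn4b had -0.64 in females and -0.75 in males, and Enpp6 0.78 and 0.56.

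At 2 and 10 months the same alleles were measured in other libraries. Their names have another form than those of Q20 and Q175 at 6 months. The library numbers of the alleles are mixed at 2 and 10 months but lie in separate blocks at 6 months. Age and library series therefore cannot be told apart. In a fit of each age with all its genotypes, no gene of 17194 passed at 2 months (0%). An absence of calls does not show that the alleles had equal levels at that age. At 10 months 1310 of 17219 passed (7.61%), 495 higher (2.87%) and 815 lower (4.73%). Of the genes tested at both ages, 146 higher genes were shared, 17.7% of the 6-month list and 29.6% of the 10-month list, and 331 lower genes, 38.7% and 40.7%. None was called in opposite directions. By list, calcium signalling had 13 lower at 10 months, upper layer markers 6 and astrocytes 11, whereas microglia had 1 higher (median -0.01), cholesterol synthesis 4 lower (median -0.07), ribosomal proteins 0 higher (median -0.01) and immediate early genes 1 lower (median 0.10). Choroid plexus had 7 lower at 10 months (median -2.61), and whether single libraries of that age carry this was not examined.

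The age differences themselves were tested in 1 fit of the 48 Q20 and Q175 libraries of 3 ages, over 17257 genes. A change between ages is here also a change between library series. From 2 to 6 months the difference changed for 101 genes (0.585%), 28 upward (0.162%) and 73 downward (0.423%), while DESeq2 called 191 and a fit of all 7 genotypes 29. Of the 101, 97 were among those called at 6 months. Both comparisons hold the same 16 libraries of 6 months, so that this overlap was largely set in advance and adds no separate evidence. Lamp5 went from 0.04 ± 0.04 at 2 months to -0.38 ± 0.04 at 6 months (change -0.42 ± 0.06, adjusted p = 7.6e-05), and Gabrd from 0.01 ± 0.03 to -0.32 ± 0.03 (change -0.32 ± 0.05, adjusted p = 7.6e-05). Arpp21 (change -0.22), Hipk4 (-0.40) and Mxd1 (-0.32) followed, and Serpina3n (0.55), Rnpep (0.27), Abca8a (0.39) and Grb14 (0.29) were among the upward changes. Htt had -0.36 ± 0.06 at 2 months, where it did not pass in the fit of that age, and -0.43 ± 0.06 at 6 months, with no called change (-0.07 ± 0.09, adjusted p = 0.85).

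From 6 to 10 months 72 genes changed (0.417%), 29 upward (0.168%) and 43 downward (0.249%), while DESeq2 called 214 and a fit of all 7 genotypes 16. Plk5 went from -0.60 ± 0.09 to -1.71 ± 0.10 (change -1.12 ± 0.14, adjusted p = 5.4e-06) and Wfs1 from -0.32 ± 0.05 to -0.78 ± 0.06 (change -0.46 ± 0.08, adjusted p = 0.00086). Onecut2, a transcription factor of development, went from 0.38 ± 0.09 to 1.32 ± 0.09 (change 0.94 ± 0.12, adjusted p = 6.1e-06). Scn4b did not follow: its differences at the 3 ages in order were -0.27, -0.70 and -0.48, with a change of 0.22 ± 0.08 after 6 months (adjusted p = 0.21). The difference of Fos moved from -0.81 ± 0.20 to 0.45 ± 0.21 (change 1.25 ± 0.29, adjusted p = 0.036), while the change of Egr2 missed the threshold (1.21 ± 0.40, adjusted p = 0.15). No member of the immediate early list, Fos included, was called higher in the fit of 10 months alone.

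**Figure D5:**
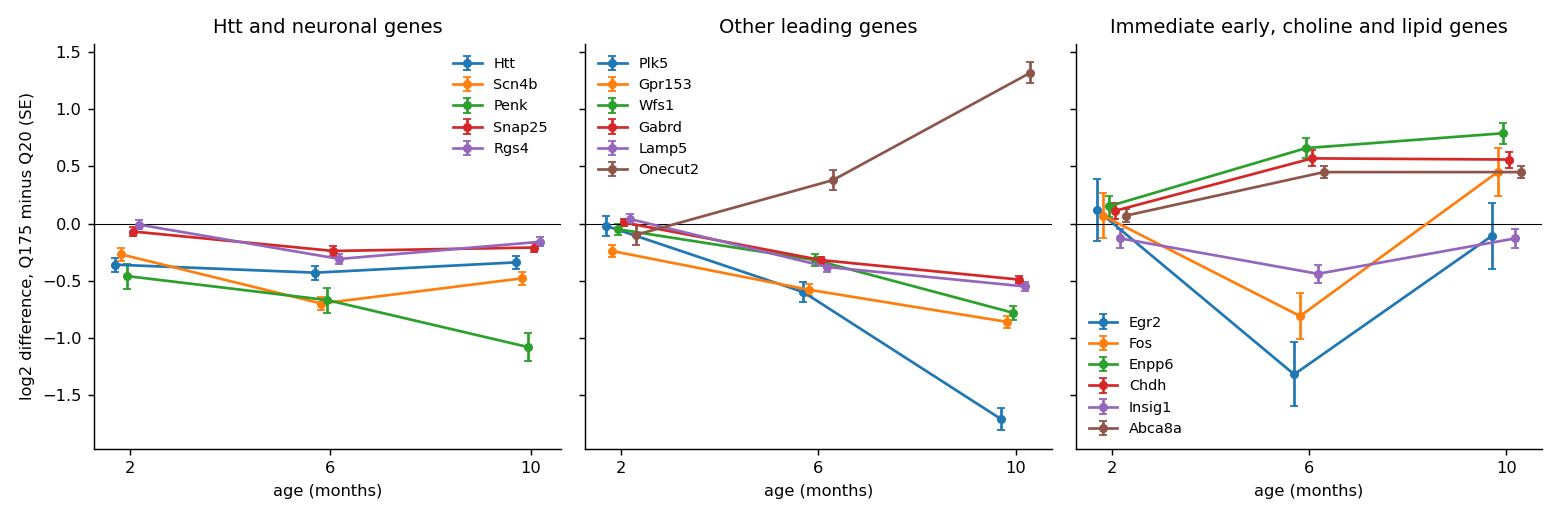
Log2 difference of Q175 from Q20 with its SE (y axis) at 2, 6 and 10 months (x axis) for 17 genes in 3 panels, from 1 fit of 48 libraries. Plk5 reaches -1.71 at 10 months and Onecut2 1.32, whereas Egr2, Fos and Insig1 are lowest at 6 months.

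The other alleles place these levels in the series at 6 months. The median of Scn4b was 125 CPM in Q20, 128 in Q80, 125 in Q92, 106 in Q111, 96.4 in Q140, 77.4 in Q175 and 134 in wild type. In the same order the median of Enpp6 was 4.10, 4.50, 3.85, 5.22, 5.87, 6.63 and 4.81 CPM, and that of Gpr153 29.9, 29.5, 28.2, 28.9, 25.7, 20.0 and 25.9 CPM. Q80 and Q92 were thus close to Q20 for Scn4b and Gpr153, and Q92 was below Q20 for Enpp6. Against Q140, 1893 genes passed (10.7%), and Q175 had 997 higher (5.66%) and 896 lower genes (5.09%), with Htt at -0.26 ± 0.04 (adjusted p = 1.5e-06), Scn4b at -0.31 ± 0.07 (adjusted p = 0.0017) and Gpr153 at -0.35 ± 0.05 (adjusted p = 6.7e-07), while Enpp6 had 0.19 ± 0.07 (adjusted p = 0.076). Each allele has its own block of library numbers at this age, so that allele and library series cannot be told apart in these comparisons. The Q140 and Q92 libraries also scored higher on the first principal component than all Q20 and Q175 libraries. Wild type against Q20, which shares the Q20 libraries, gave 5512 called genes (31.3%), and the wild-type libraries carry another form of name. Htt (-0.05 ± 0.04, adjusted p = 0.32), Scn4b (0.04 ± 0.07, adjusted p = 0.70) and Enpp6 (0.15 ± 0.08, adjusted p = 0.13) did not pass there, whereas Gpr153 (-0.22 ± 0.05, adjusted p = 0.00047), Plk5 (-0.22 ± 0.06, adjusted p = 0.0012), Wfs1 (-0.28 ± 0.04, adjusted p = 2.2e-07) and Myh7 (-0.30 ± 0.06, adjusted p = 0.00011) were lower in wild type than in Q20.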

How the data were processed

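The authors deposited estimated counts per gene and, separately, FPKM for each library, and 17.7% of the deposited counts were not whole. CASAVA 1.8.2 is the tool named in the submitters' processing notes. The aligner, the quantification, the build and the annotation are not given here by any source. Counts were rounded to whole numbers. Symbols and positions are from GENCODE M21 (GRCm38). The 56 libraries of 6 months were fitted together in edgeR 4.0.16 (R 4.3.3, filterByExpr by genotype with a minimum count of 10, TMM, robust quasi-likelihood F test, sex as covariate), with Benjamini-Hochberg adjustment across the 17611 genes and a threshold of 0.05. The fit assumes a like spread in all 7 genotypes. The labels do not say that libraries are separate animals, so the p-values measure the spread between libraries, which may be technical. DESeq2 1.42.0 and limma 3.58.1 on log2 FPKM served as alternatives. The scripts were tested on simulated data.

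Genes were named by rule: Htt, the 20 each way with the smallest p, the 8 each way with the largest difference at 1 CPM or more, up to 4 members of each list, all calls where a list had 5 or fewer, and 5 each way for age differences. Some of these are not reported here. Further members were named after their values were seen. The libraries compared, the 47 lists and the rules were chosen with earlier results of these data known.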

Additional observations from a re-analysis of the deposited data

Results flagged for a closer look

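In 8 of 106 groups of 8 libraries, over 53 genes, the highest or lowest library stood apart by Dixon's criterion, which chance meets in about 1 of 20 groups. Psat1 was at 140 CPM in Q175 female 4, Il33 at 51.5 CPM in Q175 female 4, Slc25a27 at 61.1 CPM in Q175 male 3, Plpp2 at 3.95 CPM in Q175 female 2, Prss16 at 1.90 CPM in Q175 female 1 and Ttr at 48.2 CPM in Q175 male 4, each the highest of Q175. Sspo was at 3.48 CPM in Q20 male 2, the highest of Q20, and Abca8a at 10.6 CPM in Q20 male 1, the lowest.

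The difference between Q175 and Q20 itself differed between ages for these genes, by the age term of edgeR, where age and library series cannot be told apart. From 6 to 10 months it moved upward by 0.94 for Onecut2, 2.37 for Pax2, 0.19 for Zfp275, 0.39 for Cbx8 and 0.21 for Ddx21 on the log2 scale. It moved downward for Plk5 (-1.12), Jsrp1 (-0.85), Wfs1 (-0.46), Myh7 (-0.68) and Trp53i11 (-0.37). From 2 to 6 months it moved upward for Serpina3n (0.55), Rnpep (0.27), Abca8a (0.39) and Grb14 (0.29). It moved downward for Lamp5 (-0.42), Arpp21 (-0.22), Gabrd (-0.32), Mxd1 (-0.32) and Hipk4 (-0.40).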

How the results depend on the processing

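Of 53 genes followed through the alternatives, 45 passed in each of the 16 fits that leave out 1 library. The other 8 were Dmrta2 and the choroid plexus transcripts Ttr, Slc4a5, Folr1, F5, Mfrp, Kcnj13 and Kl. Without Q20 female 2 and Q20 male 2, left out after seeing the data, these 8 were lost, and 4 changed sign: Ttr (0.30), Slc4a5 (0.38), F5 (0.17) and Kl (0.02). That fit called 1077 genes, 2.85% of those tested higher and 3.23% lower, and 994 of the 1690 genes were among them. Without Q175 male 1 and Q20 male 2, also chosen after seeing the data, 3.10% were higher. With only the 16 libraries 995 passed, 2.56% higher and 3.37% lower. On FPKM 6.97% were higher and 2.91% lower at a pseudocount of 0.1, 7.06% and 2.88% at 1, and 1.56% lower with no filter. Leaving out single libraries gave 1304 to 1903 calls, 3.64% to 5.6% higher and 3.73% to 5.16% lower, with the fewest without Q20 male 2, and 949 of the 1690 genes passed in all 16 fits. With the replicate number as a replicate block 2224 genes passed, 1151 higher and 1073 lower. After removal of allele and sex means, same-numbered Q20 and Q175 libraries correlated at -0.0573 to 0.163 over all genes. A summary over all genes cannot show whether some genes vary together in them. The summed level of immediate early genes was lowest in female 1 of Q20, of Q175, of Q140 and of wild type. What same-numbered libraries share was not tested. DESeq2 called 214 genes for the change from 6 to 10 months and 191 from 2 to 6 months, and a fit of all 7 genotypes 16 and 29. Against Q140 1193 genes passed with only those 16 libraries. Why the counts moved was not tested.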

Other observations

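Ide, the insulin-degrading enzyme (GRCm38, chr19:37268743-37337852), differed widely between libraries of the same allele, and was chosen after its values were seen. In Q20, 5 libraries lay between 46.0 and 50.9 CPM, 1 at 78.4 CPM and 2 at 101 and 105 CPM. In Q175, 2 lay at 45.5 and 47.2 CPM, 4 between 74.9 and 79.3 CPM and 2 at 104 and 105 CPM. The alleles did not differ beyond this spread (0.22 ± 0.19, adjusted p = 0.52, edgeR). Fgfbp3, on the same chromosome (chr19:36917550-36919615), lay between 3.95 and 5.09 CPM in the 5 Q20 libraries with low Ide, at 6.18 CPM in the sixth and at 7.08 and 7.62 CPM in the other two.

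Within 5 Mb of Htt, 119 other genes were tested, and 7 were higher and 14 lower in Q175 (17.6%), against 10.3% of the 1059 tested on chromosome 5.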
